A study of Mus musculus with 4 samples.

Results

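The genes described here are 10 genes of insulin and insulin-like growth factor (IGF) signalling, out of 21887 protein-coding genes on the nuclear chromosomes: the receptor genes Insr and Igf1r, the receptor substrate genes Irs1 and Irs2, the phosphoinositide 3-kinase (PI3K) subunit genes Pik3ca and Pik3r1, and the kinase genes Akt1, Akt2, Sgk3 and Gsk3b. They were chosen by name, with the PHF2 peaks of these libraries already known, so the presence of peaks at them is given as a description and carries no test. For each gene, all peaks overlapping its RefSeq body plus 5 kb on each side by at least 1 bp were taken from 4 peak lists. PHF2 is a chromatin protein that reads methylated histone H3 through a PHD finger and belongs to a family of histone demethylases.

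The libraries came from CUT&RUN, which releases the DNA near an antibody's target with a tethered nuclease, applied to gastrocnemius, the large calf muscle. The mice were male C57BL/6, 4 weeks old. All mice were Phf2 flox/flox. The KO mice were Acta1 Cre+, with a Cre driven by the skeletal actin promoter in muscle fibres, and the Ctrl mice were Acta1 Cre-. From each genotype came 1 library for PHF2 and 1 for IgG, the background antibody, which makes the groups KO PHF2, Ctrl PHF2, KO IgG and Ctrl IgG. Other cells of the muscle than fibres keep Phf2 in the KO mice, and the labels do not say how many animals gave a library.

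With no replicates, every comparison is between libraries and not between genotypes, and no test across samples was possible. The lists held 161 KO PHF2, 1621 Ctrl PHF2, 152 KO IgG and 77 Ctrl IgG peaks. Total read numbers are unknown. The number of tags (sequenced fragments) covering each PHF2 summit was solved from the authors' fold enrichment and p-value, with a median of 15 in both PHF2 lists. From the same values the KO PHF2 library was 1.01 times the size of the Ctrl PHF2 library. Tag numbers carry exact 95% Poisson intervals, which cover counting error only. A peak that is not listed is not a measured 0, and at a listed or missing peak fewer cells with PHF2 bound and less PHF2 per cell cannot be told apart. The Ctrl PHF2 list had peaks at 4 of 13 muscle fibre marker genes, 2 of 7 endothelial, 1 of 7 immune, 0 of 7 satellite cell and 0 of 7 fibro-adipogenic marker genes, where 7.38% of all protein-coding genes had one. The KO PHF2 list had peaks at 0 of these 41 genes, where 0.713% of all genes had one. The marker lists are short and were not tested, so these counts do not check the labelled tissue. Acta1, Ckm and the fast myosin genes Myh1, Myh2 and Myh4 were among the fibre markers without a peak, and peaks do not measure expression.

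Insulin and IGF1 bind receptor tyrosine kinases on the muscle fibre. The receptors phosphorylate IRS proteins, which recruit PI3K, and its lipid product brings AKT to the membrane. AKT then promotes glucose uptake, glycogen synthesis through inhibition of GSK3, and protein synthesis, and it keeps FoxO transcription factors out of the nucleus. In muscle the pathway governs both the response to a meal and fibre growth.

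The KO PHF2 list had a peak at 2 of the 10 genes, Igf1r and Pik3r1, and the Ctrl PHF2 list at 7 of the 10, these 2 included. The share of all protein-coding genes with such a peak was 0.713% for KO PHF2 and 7.38% for Ctrl PHF2, with both in 0.576%. Among genes as long as these 10 (21064 to 281412 bp) it was 1.11% for KO PHF2 and 10.9% for Ctrl PHF2. Since the genes were picked with peaks in view, nothing is read from the excess. Both Irs1 and Irs2, both PI3K subunit genes, Igf1r, Sgk3 and Gsk3b had a Ctrl PHF2 peak, whereas Insr, Akt1 and Akt2 had none. Neither the KO IgG nor the Ctrl IgG list had a peak at any of the 10, against 0.155% and 0.0640% of all genes. The IgG peak nearest to any of them lay 619 kb from Pik3r1, in both IgG lists.

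**Figure D1:**
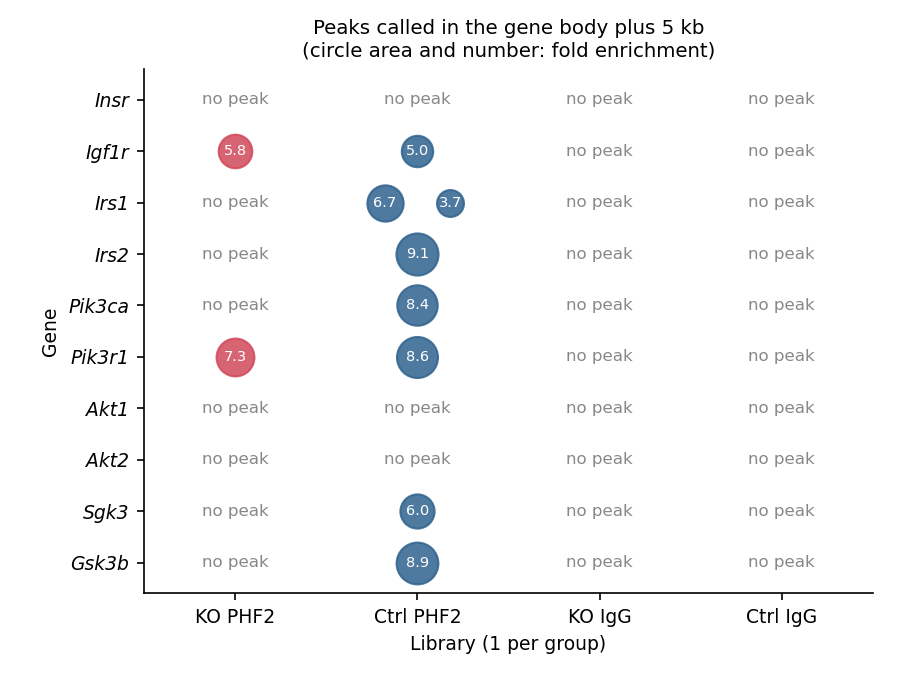
Peaks of each library (columns, 1 library per group) in the body plus 5 kb of each of the 10 genes (rows), with the fold enrichment at the summit written in the circle and shown by its area. Circles stand at 2 genes in the KO PHF2 column and 7 in the Ctrl PHF2 column, and both IgG columns are empty.

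Of the 7 genes with a Ctrl PHF2 peak, 2 also had a KO PHF2 peak, where 7.80% of all genes with a Ctrl PHF2 peak did. At the level of peaks, 1 of the 8 Ctrl PHF2 peaks was overlapped by a KO PHF2 peak, the one at Pik3r1, against 7.03% of the whole Ctrl list. Of the 2 KO PHF2 peaks, 1 overlapped a Ctrl PHF2 peak, against 75.8% of the whole KO list. The 7 Ctrl PHF2 peaks without a KO counterpart had 11 to 27 tags at the summit, with a median of 21. The lowest values in the KO list, each taken on its own, were 10 tags and a -log10 p of 6.19. All 7 were at or above both values. KO tags at these 7 places were not measured. Had the Ctrl PHF2 list been limited to its 161 peaks of highest fold, the length of the KO list, 2 of the 10 genes (Irs2 and Gsk3b) would have kept a Ctrl peak.

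The receptor genes differed from each other. Insr (Gene ID 16337, chromosome 8, 3150922 to 3279649 in mm10) encodes the insulin receptor and had no peak in any of the 4 lists. Its nearest PHF2 peaks lay 5380 kb away in the KO list and 1045 kb away in the Ctrl list. Igf1r (Gene ID 16001, chromosome 7, 67952257 to 68233668) encodes the IGF1 receptor, and at 281412 bp it is the longest of the 10 genes. Its only KO PHF2 peak, at 67952962 to 67953458, was 497 bp wide, with a fold enrichment of 5.78 and 12 tags (6.20 to 21.0). Its only Ctrl PHF2 peak, at 67951693 to 67952076, was 384 bp wide, with a fold of 5.05 and 14 tags (7.65 to 23.5).

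These Igf1r peaks did not meet. The KO summit lay at 1049 bp relative to the RefSeq start and the Ctrl summit at -537 bp, so the KO peak was inside the gene and the Ctrl peak ended upstream of it, with 885 bp between the peaks. Both were weak within their lists, at rank 126 of 161 by fold in KO PHF2 and 1354 of 1621 in Ctrl PHF2. The KO peak had a -log10 q of 2.75 and is lost if a value of at least 3 is asked for. The Ctrl peak had 3.18, and it drops out if the gene body alone is searched. Igf1r therefore had a peak in both PHF2 lists by gene but none shared by position.

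The Ctrl PHF2 peak of Igf1r was the only peak that reached into the RefSeq promoter window of its own gene, among the 8 genes with such a window, which runs from 250 bases before the start to 50 after it. It covered the first 70 bases of the window printed here (chr7:67952007-67952306, plus strand, GRCm38.p6, the assembly behind mm10). All promoter windows are written 5′ to 3′ on the strand of the gene. Capitals mark matches, on either strand, to any of 7 motifs: the TATA box as TATAAA, the GC box as GGGCGG, the CCAAT box by its own letters, the E-box as CACGTG, the cyclic AMP response element as TGACGTCA, the AP-1 element as TGANTCA and the forkhead element as GTAAACA.
Igf1r: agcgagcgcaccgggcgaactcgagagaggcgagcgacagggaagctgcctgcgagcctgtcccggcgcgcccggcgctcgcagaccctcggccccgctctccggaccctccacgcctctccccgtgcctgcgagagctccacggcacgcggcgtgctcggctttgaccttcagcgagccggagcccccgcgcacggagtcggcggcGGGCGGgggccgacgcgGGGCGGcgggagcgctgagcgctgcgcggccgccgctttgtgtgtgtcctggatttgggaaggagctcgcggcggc
This window held 48 CpG dinucleotides, more than 98.5% of all RefSeq promoter windows of protein-coding genes, where the median was 13, and GGGCGG in 2 places.

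Both receptor substrate genes had Ctrl PHF2 peaks and no KO PHF2 peak. IRS1 and IRS2 are the docking proteins that link the receptors to PI3K. Irs1 (Gene ID 16367, chromosome 1, 82233105 to 82291439, minus strand) was the only one of the 10 with more than 1 peak in a list. The peak farther from its start, at 82286188 to 82289638, was 3451 bp wide, the widest at these genes and the third widest of the 1621 Ctrl PHF2 peaks. Its fold was 6.74 and its summit had 24 tags (15.4 to 35.7), 4339 bp downstream of the start. The nearer peak, at 82289816 to 82290735 and 920 bp wide, followed after a gap of 177 bp, with its summit 1073 bp downstream.

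The nearer Irs1 peak had 27 tags (17.8 to 39.3), the most of any peak at the 10 genes and rank 48 of 1621 in its list. Its fold was 3.71, rank 1614 of 1621. The caller's local background there was 6.16 tags, against 2.25 at the farther Irs1 peak and 0.557 to 1.54 at the other Ctrl PHF2 peaks of these genes. With a -log10 q of 2.97 it fell just short of a limit of 3. Fold and tags ranked this peak at opposite ends of the list. The nearest KO PHF2 peak lay 24458 kb from Irs1.

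Irs2 (Gene ID 384783, chromosome 8, 10984681 to 11008929, minus strand) had the highest fold of the 10 genes. Its Ctrl PHF2 peak, at 11006902 to 11008823, was 1922 bp wide, with a fold of 9.07 (rank 153 of 1621) and 21 tags (13.0 to 32.1). The summit lay 1760 bp downstream of the start, and the near edge 106 bp downstream. The peak also overlaps the long non-coding RNA gene 9530052E02Rik (11007850 to 11054541), so it cannot be given to Irs2 alone. The promoter window of each substrate gene is shown because the peaks begin downstream of it (Irs1, chr1:82291390-82291689, and Irs2, chr8:11008880-11009179, both minus strand).
Irs1: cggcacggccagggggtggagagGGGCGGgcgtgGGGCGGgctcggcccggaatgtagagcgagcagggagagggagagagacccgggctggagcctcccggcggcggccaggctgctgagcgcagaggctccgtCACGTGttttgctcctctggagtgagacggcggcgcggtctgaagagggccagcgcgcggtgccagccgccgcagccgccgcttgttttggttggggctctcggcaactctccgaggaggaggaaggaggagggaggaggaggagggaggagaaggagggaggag
Irs2: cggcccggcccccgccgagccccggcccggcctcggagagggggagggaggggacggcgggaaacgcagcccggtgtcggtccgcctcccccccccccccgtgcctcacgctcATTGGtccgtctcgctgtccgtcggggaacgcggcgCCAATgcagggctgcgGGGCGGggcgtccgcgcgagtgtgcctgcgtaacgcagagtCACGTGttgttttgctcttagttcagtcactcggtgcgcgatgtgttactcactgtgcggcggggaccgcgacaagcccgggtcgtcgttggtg
The Irs1 window held 28 CpG and the Irs2 window 41, and both held CACGTG, the palindromic E-box, in 1 place. Of all promoter windows 7.84% hold that motif, and no PHF2 peak reached into either window.

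**Figure D2:**
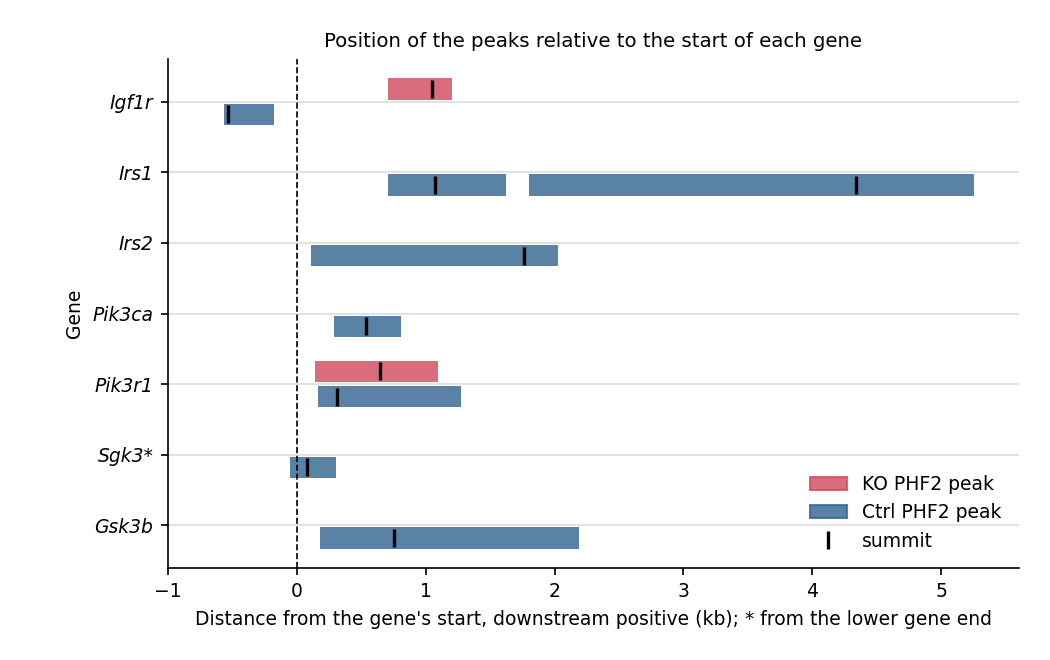
Each bar is 1 peak at the 7 genes with a peak, KO PHF2 above Ctrl PHF2, drawn by its distance in kb from the RefSeq start of the gene (downstream positive, summit as a black tick), and from the lower-coordinate gene end for Sgk3. The KO and Ctrl bars lie over each other at Pik3r1 and apart at Igf1r, and the Irs1 bars reach farthest downstream.

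Pik3r1 was the only gene of the 10 with overlapping KO and Ctrl PHF2 peaks. It encodes the regulatory subunit p85 alpha of PI3K and shorter forms from inner starts (Gene ID 18708, chromosome 13, 101680761 to 101768217, minus strand). The KO PHF2 peak, at 101767121 to 101768077, was 957 bp wide, with a fold of 7.32 and 16 tags (9.15 to 26.0). The Ctrl PHF2 peak, at 101766943 to 101768053, was 1111 bp wide, with a fold of 8.62 and 25 tags (16.2 to 36.9). The peaks shared 933 bp, which is 97.5% of the KO peak and 84.0% of the Ctrl peak.

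The summits at Pik3r1 lay 648 bp (KO) and 308 bp (Ctrl) downstream of the outer start, 340 bp apart. The KO peak had 0.640 times the tags of the Ctrl peak, with an exact interval of 0.319 to 1.25 that includes 1, so a difference was not detectable at this depth. Within its list the KO peak was the ninth widest of 161 and stood at rank 44 by fold. The Ctrl peak stood at rank 202 of 1621 by fold. Both peaks belong to the outer of 2 RefSeq starts, and no peak was called at the inner one, whose promoter window (chr13:101692581-101692880) held 6 CpG and TATAAA in 1 place. The window of the outer start (chr13:101768168-101768467, minus strand) is shown because it lies next to peaks of both PHF2 lists.
Pik3r1: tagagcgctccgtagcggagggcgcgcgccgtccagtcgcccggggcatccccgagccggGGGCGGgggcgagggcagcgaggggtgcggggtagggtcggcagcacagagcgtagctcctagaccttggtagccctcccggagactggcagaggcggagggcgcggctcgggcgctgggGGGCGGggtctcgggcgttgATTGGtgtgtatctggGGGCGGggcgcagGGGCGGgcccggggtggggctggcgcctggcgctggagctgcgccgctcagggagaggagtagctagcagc
It held GGGCGG in 4 places and CCAAT in 1, with 34 CpG. Of all promoter windows 46.2% hold GGGCGG and 38.2% hold CCAAT.

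Pik3ca (Gene ID 18706, chromosome 3, 32397065 to 32466112, plus strand) encodes p110 alpha, the catalytic subunit that p85 alpha binds. It had no KO PHF2 peak. Its Ctrl PHF2 peak, at 32397355 to 32397875, was 521 bp wide, close to the list's median of 505 bp, with 16 tags (9.15 to 26.0). Its fold of 8.37 stood at rank 236 of 1621. The summit lay 533 bp downstream of the start. Its promoter window held 20 CpG.

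Of the kinases downstream of PI3K, Akt1 and Akt2 had no peak in any list. AKT2 is the form most tied to insulin-stimulated glucose uptake, and AKT1 to growth. Akt1 (Gene ID 11651, chromosome 12, 112653821 to 112674884) had its nearest KO PHF2 peak 13091 kb away. Its nearest Ctrl PHF2 peak lay 32.6 kb away, with a fold of 4.01, the closest peak outside the search window at any of the 10 genes. Akt2 (Gene ID 11652, chromosome 7, 27591552 to 27640826) had its nearest KO PHF2 peak 40118 kb away and its nearest Ctrl PHF2 peak 104 kb away, with a fold of 5.05. Widening the search to 10 kb added no peak for Insr, Akt1 or Akt2.

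Sgk3 (Gene ID 170755, chromosome 1, 9798130 to 9902570) encodes a kinase related to AKT that is bound to endosomes. It had no KO PHF2 peak and the weakest Ctrl PHF2 peak of the 10 genes by tags, with 11 (5.49 to 19.7). That peak, at 9798080 to 9798433, was 354 bp wide with a fold of 5.98, rank 952 of 1621. It spanned the lower-coordinate end of the gene, with the summit 81 bp inside it.

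Gsk3b (Gene ID 56637, chromosome 16, 38089001 to 38246084, plus strand) encodes glycogen synthase kinase 3 beta, which AKT inhibits. It had no KO PHF2 peak, and the nearest lay 5811 kb away. Its Ctrl PHF2 peak, at 38089178 to 38091192, was 2015 bp wide, rank 44 of 1621. The fold was 8.94 (rank 158), with 26 tags (17.0 to 38.1), and the summit lay 754 bp downstream of the start. The first bases of the peak overlap the higher-coordinate end of the long non-coding RNA gene BC031361 (38085064 to 38089260). The peak therefore cannot be given to Gsk3b alone. The promoter windows of Gsk3b (chr16:38088751-38089050) and of the outermost Akt2 start (chr7:27591302-27591601), both on the plus strand, are set side by side as a gene with a strong Ctrl peak and one with none.
Gsk3b: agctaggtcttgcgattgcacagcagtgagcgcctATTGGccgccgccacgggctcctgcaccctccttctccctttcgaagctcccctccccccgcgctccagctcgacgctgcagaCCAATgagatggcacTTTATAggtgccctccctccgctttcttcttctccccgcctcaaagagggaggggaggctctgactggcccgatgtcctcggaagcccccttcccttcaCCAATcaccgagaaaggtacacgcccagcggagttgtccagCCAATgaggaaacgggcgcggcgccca
Akt2: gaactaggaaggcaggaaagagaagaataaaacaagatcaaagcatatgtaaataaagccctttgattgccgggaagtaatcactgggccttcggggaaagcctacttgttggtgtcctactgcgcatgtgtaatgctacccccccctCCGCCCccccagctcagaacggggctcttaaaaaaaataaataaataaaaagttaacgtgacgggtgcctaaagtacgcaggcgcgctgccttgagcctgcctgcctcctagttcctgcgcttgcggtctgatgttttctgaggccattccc
The Gsk3b window held 21 CpG, CCAAT in 4 places, TATAAA in 1 and no GGGCGG. The Akt2 window held 12 CpG and GGGCGG in 1 place. A high CpG count did not go with a peak in every case. The inner of the 2 Akt1 starts, which has no peak, had 42 CpG, close to the 41 of Irs2.

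Over the 13 promoter windows of the 8 genes with an entry, GGGCGG was found in 7, CCAAT in 4, TATAAA in 2 and CACGTG in 2. TGANTCA was found in 1 (Pik3ca), beside 6.99% of all promoter windows, and GTAAACA in 1 (the outer Akt1 start), beside 3.01%. TGACGTCA was found in 0, beside 2.23%, and TATAAA is held by 12.6% of all windows. No match to one of these motifs overlapped a match to another in these 13 windows. A match is a stretch of letters and not a bound site.

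**Figure D3:**
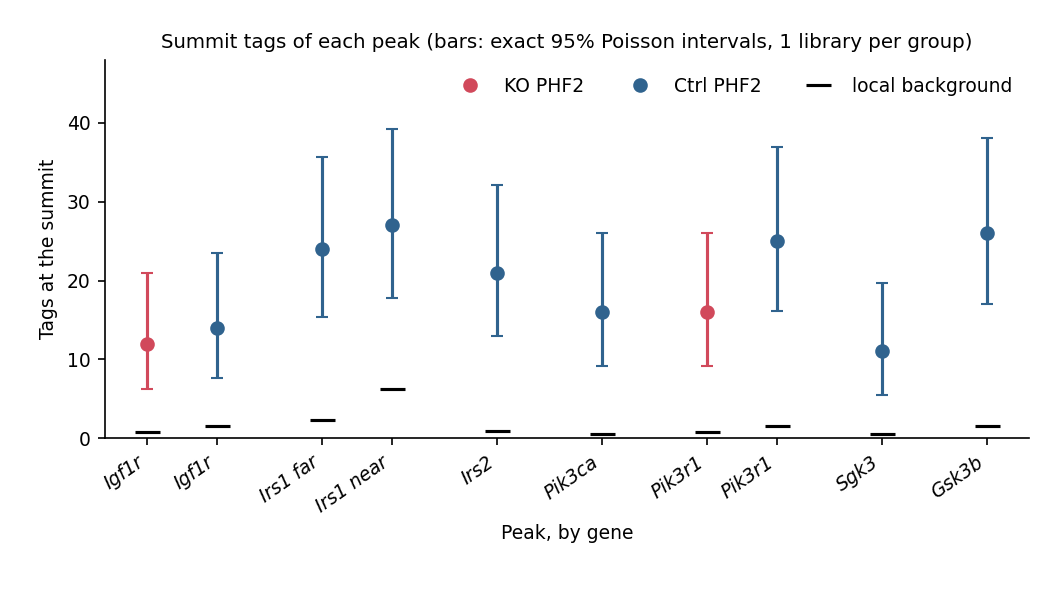
Tags at the summit of each peak at the 7 genes with a peak (points, KO PHF2 left of Ctrl PHF2) with exact 95% Poisson intervals for counting error in 1 library per group, and the caller's local background in tags as black dashes. Points run from 11 at Sgk3 to 27 at the nearer Irs1 peak, where the background of 6.16 is the highest.

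Taken as a set within their lists, the 8 Ctrl PHF2 peaks ran from 354 to 3451 bp in width, with a median of 1016 bp beside 505 bp for the whole Ctrl list, and 6 of them were wider than that list's median. Their folds ran from 3.71 to 9.07, with a median of 7.55 beside 6.37, and 5 were above the list's median. The median of their summit tags was 22.5 beside 15. Both KO PHF2 peaks were wider than the KO list's median of 451 bp, and 1 of them was above its median fold of 6.64. Irs1, Irs2 and Gsk3b formed the wide end, and Igf1r, Sgk3 and Pik3ca the narrow one. These values come from the lists used to pick the genes and are a description.

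**Figure D4:**
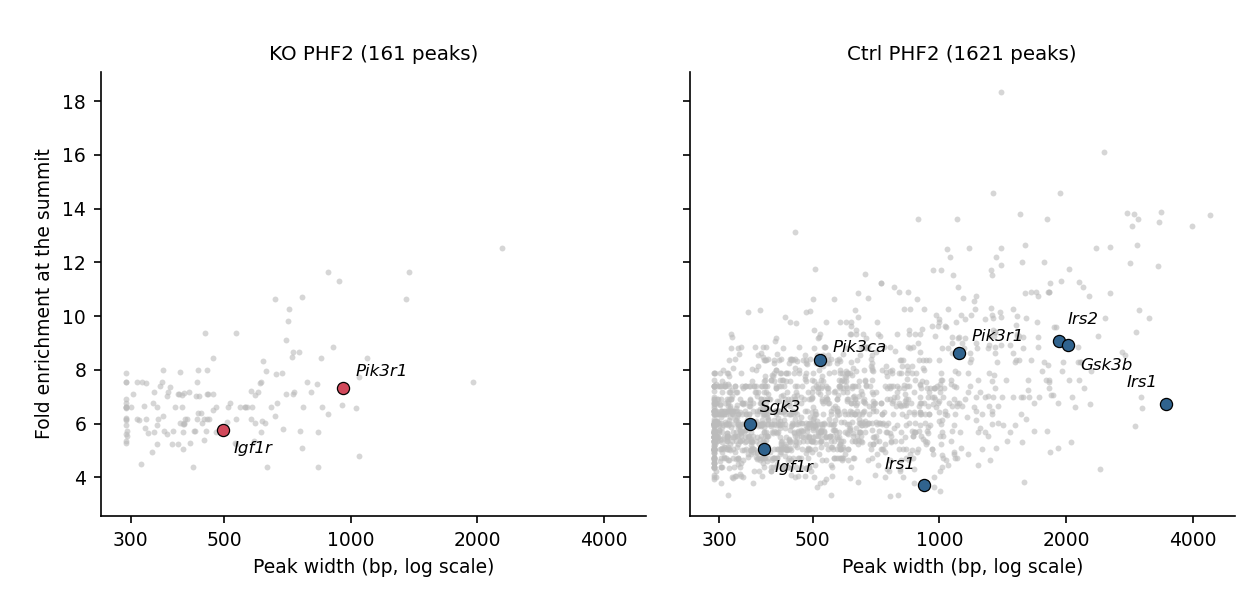
Peak width (log axis, bp) against fold enrichment at the summit for every peak of the KO PHF2 list (161, left) and the Ctrl PHF2 list (1621, right), with peaks at the 10 genes coloured and named. Irs2 and Gsk3b are wide with a fold near 9, while the Irs1 peaks are wide for their fold of 6.74 and 3.71.

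Where the peaks sit along the gene is also a description, since the genes were picked with their peaks in view and the search window takes in downstream summits over the whole body but upstream ones only within 5 kb. The RefSeq promoter table gave a start for 8 of the 10 genes, all but Insr and Sgk3. Both KO PHF2 peaks with a known start had their summit downstream of it, as had 86.7% of the KO PHF2 peaks within 5 kb of any RefSeq start. So did 6 of the 7 Ctrl PHF2 peaks, beside 78.2% of such Ctrl PHF2 peaks. The start itself lay inside 0 of the 2 KO and 0 of the 7 Ctrl peaks, beside 18.6% of KO and 40.5% of Ctrl peaks near a start. The Sgk3 peak is not among the 7, and whether the lower-coordinate gene end that it spans is the start was not given. The summit was more than 1 kb downstream in 1 of the 2 KO peaks, at Igf1r, beside 20.4% of the list. It was so in 3 of the 7 Ctrl peaks, both at Irs1 and the one at Irs2, beside 9.26% of the list. With so few peaks and no test, these counts do not set the genes apart from the lists.

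Beyond the 10 genes, a list of 74 other genes of the insulin, IGF and mTOR pathway was searched in the same way. The KO PHF2 list had peaks at 6 of the 74 (8.11%) and the Ctrl PHF2 list at 14 (18.9%), and neither IgG list had any. These are to be read beside the 0.713% and 7.38% of all genes, and the list was written with earlier results known. None of the 11 genes for ligands and IGF-binding proteins, such as Igf1, Igf2 and Igfbp5, had a peak. Nor had the other receptor genes Igf2r and Insrr, or the 5 other PI3K subunit genes, among them Pik3cb and Pik3r2. Gsk3a, the paralogue of Gsk3b, had none either.

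Among the adaptor genes 1 of 12 had a KO PHF2 peak and 2 a Ctrl PHF2 peak. Gab1, a docking protein for PI3K and SHP2, had a KO fold of 5.73 and a Ctrl fold of 8.85, with 11 and 28 tags and a ratio of 0.393 (0.176 to 0.814), at summits 1744 bp apart. Cblb, a ubiquitin ligase, had a Ctrl fold of 7.32 and no KO peak. Sgk1, the relative of Sgk3, had 3 Ctrl PHF2 peaks of up to 6.94 and no KO peak. Tbc1d4, the AKT substrate that restrains glucose transporter movement, had a Ctrl fold of 7.16, and Slc2a4, the transporter gene itself, had no peak.

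Of the 10 genes listed under phosphatases and inhibitors, 2 had a KO PHF2 peak and 5 a Ctrl PHF2 peak. Trib1 and Trib2, pseudokinases of the Tribbles family, had both. At Trib1 the KO fold was 7.16 and the Ctrl fold 12.6, with 18 and 32 tags. At Trib2 a Ctrl peak of 2919 bp with 35 tags held 2 KO peaks, with 19 and 16 tags. The KO folds there were 6.29 and 7.47, above the Ctrl fold of 5.93. The local background was 1.64 and 0.719 tags at the KO summits and 4.62 at the Ctrl summit. Phlpp1, an AKT phosphatase, had 2 Ctrl PHF2 peaks with folds of up to 6.45 and no KO peak. Socs3, named after its values were seen, had 1 Ctrl PHF2 peak with a fold of 6.34.

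Of 4 FoxO genes, Foxo1 and Foxo3 had peaks in both PHF2 lists. Their highest folds were 11.3 and 7.55 in KO PHF2, against 13.3 and 10.9 in Ctrl PHF2. Of 16 genes of the mTOR branch, Ddit4, an inhibitor of mTORC1, had a KO fold of 7.55 and a Ctrl fold of 8.67, with 15 and 20 tags. Mlst8, a subunit of both mTOR complexes, had a Ctrl fold of 7.19 only, and the genes Mtor, Rptor and Rictor had no peak. In the Ras branch 1 of 6 had a peak, Sos2, at 8.84 in Ctrl PHF2.

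The KO PHF2 peaks that overlapped a Ctrl PHF2 peak at these pathway genes had from 0.393 times the summit tags of the Ctrl peak at Gab1 to 0.774 times at Foxo1, beside 0.640 at Pik3r1. Both Trib2 pairs share 1 Ctrl peak, whose fold of 5.93 was below both KO folds although its tags were more. Over all 126 overlapping pairs of the lists, 106 (84.1%) had fewer tags at the KO summit. The ratio had its median at 0.717 and its quartiles at 0.579 and 0.883, so a lower KO value was the general pattern of these pairs. Such pairs exist only where both lists had a peak, and over each whole list the median was 15 tags. The intervals at Gab1 and for both Trib2 pairs lay below 1, and those at Trib1, Foxo1, Foxo3, Ddit4 and Pik3r1 included 1. They cover counting error in 1 library each, at summits 121 to 1744 bp apart. Of the 16 Ctrl PHF2 peaks at the 74 genes with a RefSeq start, 9 covered it, where 0 of 7 did at the 10 genes. Over the Ctrl list, 40.5% of peaks within 5 kb of a start did. The 7 leave out the Sgk3 peak, which spans a gene end but had no start given, and the contrast was not tested.

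**Figure D5:**
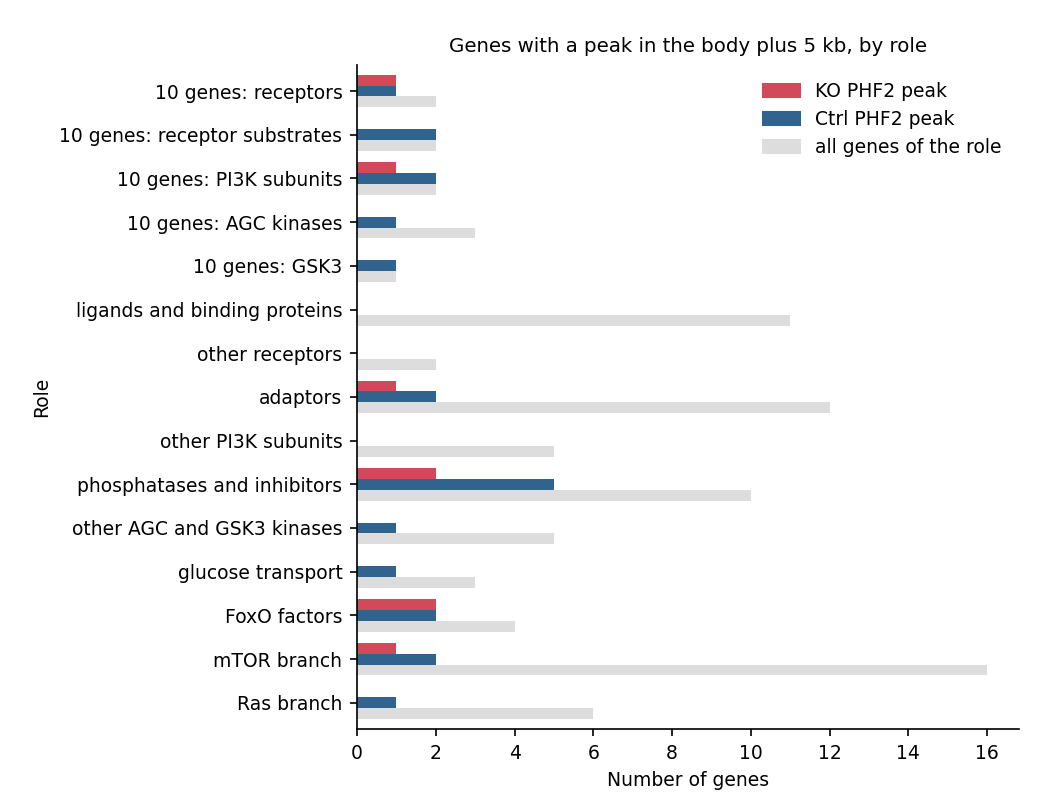
Number of genes with a KO PHF2 peak, with a Ctrl PHF2 peak and in total (bars from top to bottom in each group) for the roles of the 10 genes and of the 74 other pathway genes. Among the 10 genes, both receptor substrate genes and both PI3K subunit genes have a Ctrl PHF2 peak. The 5 other PI3K subunit genes, Irs4 (counted among the adaptors) and the 11 genes for ligands and binding proteins have none.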

How the data were processed

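The submitters' processing notes name Bowtie2, MACS2 and mm10. Their versions and settings, duplicate handling and the control library were not given in the sources used here. The authors deposited 1 peak list per library in the 10-column narrowPeak layout. The deposited fold enrichment compares the summit with the local background of the caller, as a ratio, the deposited -log10 p-value and -log10 q-value refer to the same background, and the deposited score, 10 times the -log10 q without decimals, was not used. All are the authors' own values per peak and only describe or rank peaks within a list.

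Starts were made 1-based. Gene bodies were read from the RefSeq gene table for GRCm38.p6, and starts and promoter sequences from a RefSeq promoter table with 21255 full windows of protein-coding genes. Insr and Sgk3 had no entry there, and exons were not used here. The fold was taken as (pileup + 1) / (background + 1) and p as a Poisson upper tail. Solved in this way, pileups came out as whole tags, within 0.005, for all 84 KO PHF2 and 309 Ctrl PHF2 distinct value pairs, times a factor of 0.609 (KO) and 0.649 (Ctrl). The best other factors reached 63.1% and 52.1%. A second solution existed for 3 KO and 9 Ctrl pairs, none of them at the 10 genes. The library size ratio assumes the same fragment length in both calls. The members, gene lists and tests were chosen with earlier results of these data known. Named were all 10 genes and, of the pathway list, each gene with a KO PHF2 peak and up to 3 per role by Ctrl fold, and some genes that this rule names are left out of the text. Alternatives changed the window, the threshold, the overlap rule and peak merging. The work was done in Python 3.11.15 with pandas 2.3.3, SciPy 1.17.1, NumPy 2.4.6 and, for plots, matplotlib 3.10.9.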

Additional observations from a re-analysis of the deposited data

How the results depend on the processing

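No paired analysis was possible because there was a single library per group, which also means that none could be left out. Of 100 alternative values, 86 stayed within their limits (a count within 1.5 times) and 14 moved. The limit of 1.5 times did not hold for medians. With the Ctrl PHF2 list limited to 161 peaks by fold, the median Ctrl peak width at the 10 genes went from 1015.5 to 1968.5 bp. That change was counted as within its limit. With a -log10 q of at least 3, KO PHF2 peaks remained at 1 of the 10 genes (1 peak), Pik3r1, and at 0.544% of all genes. With the Ctrl PHF2 list limited to 161 peaks by fold, Ctrl peaks were left at 2 of the 10 genes (2 peaks), 3 of the 74 other pathway genes and 0.781% of all genes, and 0 of them had a KO counterpart. Counting peaks within 1 kb of each other as shared gave 2 shared Ctrl peaks in place of 1, by adding Igf1r. The share of all genes with a Ctrl PHF2 peak was 6.39% for the gene body alone, 6.88% with 1 kb, 8.06% with 10 kb, 6.59% with a -log10 q of at least 3 and 6.75% at the lowest KO PHF2 -log10 p. Summit tags of 10 to 27 in the KO PHF2 list limit which ratios between libraries can be detected.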

Other observations

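The nearest PHF2 peaks outside the search window of Igf1r were a pair that overlapped, 193 kb before the gene in the KO list and 192 kb before it in the Ctrl list. The KO PHF2 peak (chromosome 7, 67759134 to 67759523) had a fold of 5.25 and 11 tags (5.49 to 19.7). The Ctrl PHF2 peak (67759303 to 67759771) had a fold of 7.01 and 25 tags (16.2 to 36.9). Genes between this pair and Igf1r were not looked at, and no value ties the pair to Igf1r. Near Irs2 a like pair lay 304 kb away in the KO list, with a fold of 5.98, and 303 kb away in the Ctrl list, with a fold of 6.99. Both pairs were named after their values were seen.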
